A study of Mus musculus with 4 samples.

Results

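Chemokines of the CC family are small secreted proteins that steer leukocytes through G protein-coupled receptors, and 7 of their genes are described here in cells of the mouse fracture callus: Ccl2, Ccl7, Ccl3, Ccl4, Ccl6, Ccl9 and Ccl24. They were taken by symbol from the 32285 genes of the deposited matrices, all 7 were found, and their UMIs (unique molecular identifiers, each counted as 1 captured transcript) were summed per library and per cell class named from marker genes. Ccl2 and Ccl7 are ligands of Ccr2, the receptor that brings classical monocytes out of the marrow. Ccl3, a ligand of Ccr1, and the related Ccl4 are secreted by activated granulocytes, macrophages and lymphocytes. Ccl6 and Ccl9 are rodent ligands of Ccr1 made mostly by myeloid cells, and Ccl24, also called eotaxin-2, acts on Ccr3 of eosinophils and basophils and is known from alternatively activated macrophages. In a healing fracture, neutrophils arrive first and monocytes and macrophages follow, and CC chemokines are among the signals that bring them in.

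The 4 droplet single-cell RNA libraries came from tibial calluses of male C57BL/6J mice aged 20 months. The 2 control libraries (control 1 and control 2) came from mice given a control microgel and the 2 adenosine libraries (adenosine 1 and adenosine 2) from mice given an adenosine microgel, all taken at day 7. Viable cells were sorted after red cell lysis, and the labels, which give the tissue as bone marrow and the titles as callus, do not say whether libraries came from separate animals or pools. The p-values therefore measure only the spread between these libraries, which may be technical. The comparison the design implies is adenosine against control.

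After filtering, 31280 cells remained (6284 to 8677 a library), with median depths of 2992.5 to 4714 UMIs a cell, and any pair of libraries shared 13 to 28 cell barcodes. Cells carrying mesenchymal markers, the stromal part of a callus, numbered 1 to 28 a library, so the cells analysed were almost all hematopoietic. Control 2 stood apart: it held 4601 mature and 231 immature neutrophils against 2197 to 3136 and 2251 to 3016 in the other 3 libraries, and 917 C1q macrophages against 45 to 145. Strings of 4 values run from control 1 and control 2 to adenosine 1 and adenosine 2. Levels are in CPM, the UMIs of a gene scaled to one common UMI total for the cells named. Capture is from the 3′ end, so levels are compared for one gene between cells and not between genes. In sums over cells of several kinds, fewer cells of a kind and less RNA per cell cannot be told apart.

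The genes lie in 3 places of the GRCm38 (mm10) genome. Ccl2 (chr11:82035571-82037453) and Ccl7 (chr11:82045712-82047525) are neighbours on the plus strand, with starts 10.1 kb apart. Ccl9 (chr11:83572919-83578636), Ccl6 (chr11:83587882-83593087) and Ccl3 (chr11:83647844-83649355) follow on the minus strand 1532.9 kb farther on, and Ccl4 (chr11:83662584-83664683) begins 13.2 kb from Ccl3 on the plus strand. Ccl24 lies alone on another chromosome (chr5:135569937-135573049, minus strand). All 7 are protein-coding, with 3 exons each in the first annotated transcript except Ccl6 and Ccl9, which have 4. Every value below is a count of UMIs over the whole gene.

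The 250 bases before the RefSeq start were in the reference for 3 of the 7 genes. They are shown because Ccl9 and Ccl6, only 14.5 kb apart between starts, differed in the order of cell classes. By mean level mature neutrophils were the highest class for Ccl6 but not for Ccl9, and Ccl3 lay in few of their clusters. Capitals mark matches, on either strand, to TATAAA, to the AP-1 motif TGANTCA, to the NF-kB motif, to the PU.1 core AGGAAG and to the C/EBP motif TTNCNNAA. All 3 are read on the minus strand of GRCm38.p6, from chr11:83578637-83578886 for Ccl9, chr11:83593088-83593337 for Ccl6 and chr11:83649379-83649628 for Ccl3, whose RefSeq start lies 23 bases before the annotated gene.
Ccl9: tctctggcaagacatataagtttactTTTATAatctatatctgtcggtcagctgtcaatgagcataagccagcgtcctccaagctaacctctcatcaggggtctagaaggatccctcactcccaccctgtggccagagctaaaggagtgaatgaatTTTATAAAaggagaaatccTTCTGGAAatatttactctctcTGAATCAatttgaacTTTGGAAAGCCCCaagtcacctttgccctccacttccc
Ccl6: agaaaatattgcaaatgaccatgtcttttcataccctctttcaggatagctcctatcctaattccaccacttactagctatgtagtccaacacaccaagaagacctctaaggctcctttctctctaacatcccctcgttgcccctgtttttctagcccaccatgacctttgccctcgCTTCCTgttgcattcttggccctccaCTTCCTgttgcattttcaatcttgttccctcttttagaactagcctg
Ccl3: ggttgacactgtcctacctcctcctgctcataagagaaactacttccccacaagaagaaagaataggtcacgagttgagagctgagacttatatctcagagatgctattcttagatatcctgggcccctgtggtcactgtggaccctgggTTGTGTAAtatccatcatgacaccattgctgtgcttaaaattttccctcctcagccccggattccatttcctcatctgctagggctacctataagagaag
The Ccl9 stretch held TATAAA matches at -224, -94 and -92 counted from the start (the last 2 overlap). It also held AP-1 at -53, NF-kB at -35, and C/EBP at -75 and -38, the latter overlapping NF-kB. The AP-1 letters, TGAATCA, match on both strands because N stands for any base. The Ccl6 stretch held 2 AGGAAG cores on the opposite strand, at -73 and -47, and the Ccl3 stretch 1 C/EBP match at -100. Of 32851 such stretches, 12.4% held TATAAA, 6.75% AP-1, 7.25% NF-kB, 29.5% AGGAAG and 36.8% the loose C/EBP pattern, so single matches are common. The longest run that Ccl6 and Ccl9 shared was 13 bases, against 8 for either with Ccl3. A match is only a description of the letters.

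Over cell classes, Ccl2, Ccl7 and Ccl24 were highest in C1q macrophages, Ccl3 and Ccl4 in mature neutrophils and in basophils or mast cells, Ccl6 in mature neutrophils and in basophils or mast cells, and Ccl9 in basophils or mast cells, followed by C1q macrophages and monocytes. Classes came from clusters of the same cells, made without any chemokine gene, so these levels are a description with no test.

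**Figure D1:**
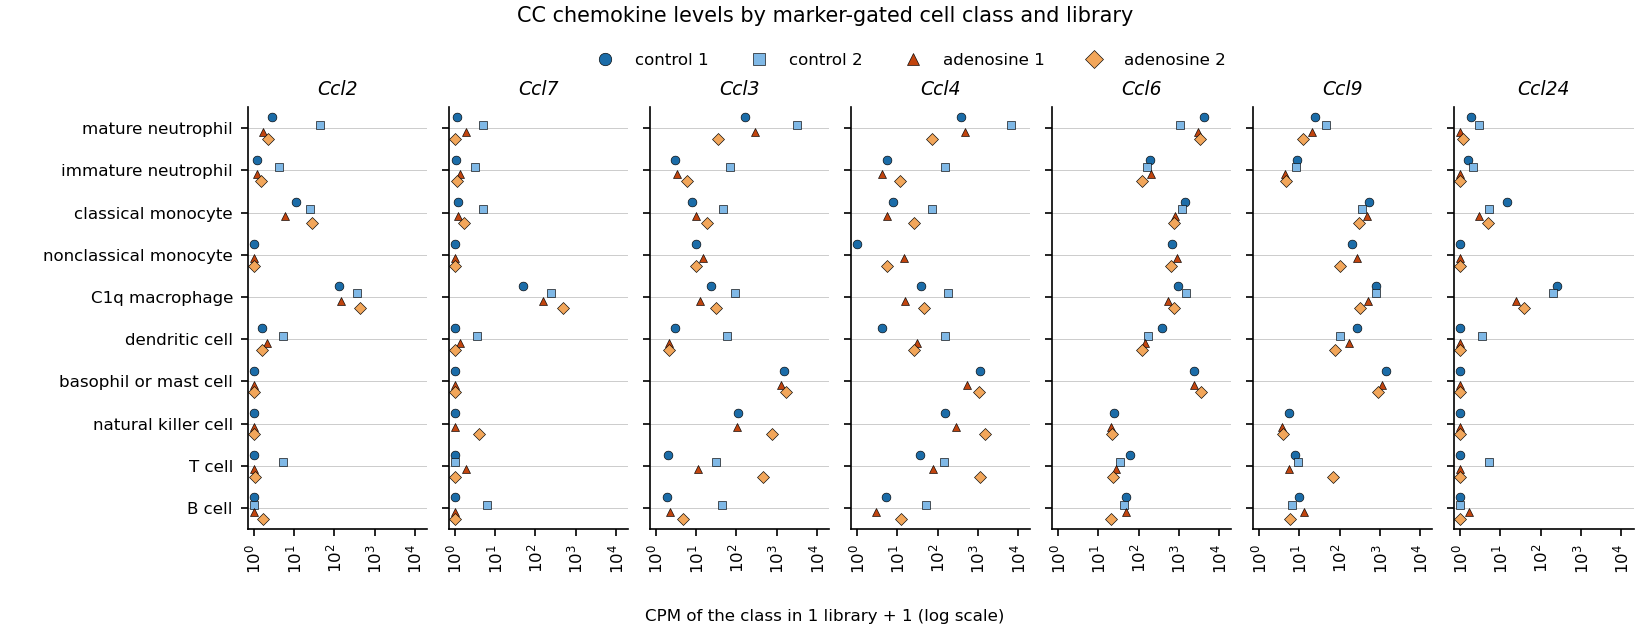
Level of each of the 7 genes (horizontal log axis, CPM + 1) in 10 cell classes, 1 point per library with at least 20 cells of the class. Ccl2, Ccl7 and Ccl24 peak in C1q macrophages, control 2 stands to the right for Ccl3 and Ccl4 in most classes, and Ccl6 in mature neutrophils is lowest in control 2.

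Ccl2, the classical monocyte attractant, averaged 271 ± 159 CPM (SD, n = 4) in C1q macrophages, a cluster led by Spp1, Arg1 and C1qb. The libraries stood at 127, 369, 146 and 444, so control and adenosine values were interleaved. The next class, classical monocytes, did not overlap with it, at 9.91, 24.6, 5.03 and 27.2 CPM. Below that, mature neutrophils (0.685 to 42.9 CPM) and granulocyte-monocyte progenitors (2.43 to 32.6) overlapped with the monocytes.

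Ccl7, a second Ccr2 ligand, was found almost only in C1q macrophages, which held 92.2%, 95.8%, 91.6% and 96.1% of its UMIs although they were 1.19%, 14.6%, 1.77% and 0.554% of cells. Its level there was 47.0, 243, 156 and 496 CPM, lowest in control 1 and highest in adenosine 2. No other class of at least 20 cells went above 17.4 CPM in any library. For Ccl2, C1q macrophages held 47.9%, 83.6%, 75.3% and 40.0% of the UMIs, and classical monocytes 48.0% in adenosine 2, where 608 of 820 of them belonged to a cluster that held 54, 9 and 0 cells of the other libraries.

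Ccl24, the eosinophil attractant, stood at 253, 201, 23.9 and 38.3 CPM in C1q macrophages, so that both control libraries were above both adenosine libraries. Classical monocytes came next at 13.3, 4.10, 1.86 and 3.80 CPM. Few cells carried these UMIs. In control 1, 13 of 103 macrophages had any, and 1 cell held 141 of 253 UMIs. In adenosine 2, 1 of 45 macrophages had any, and it held all 17. Without the cell of most UMIs, the levels were 113, 175, 11.7 and 0 CPM. The 0 of adenosine 2 follows from leaving out its only cell with Ccl24, so these values are no second comparison of the groups.

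Ccl2 and Ccl7 were also concentrated in few macrophages. The 5 cells of most UMIs held 89.0%, 20.0%, 50.4% and 83.2% of the Ccl2 UMIs and 91.5%, 36.1%, 70.1% and 90.9% of the Ccl7 UMIs. Without the top cell, Ccl7 stood at 33.4, 214, 88.2 and 336 CPM and Ccl2 at 85.6, 353, 117 and 256. The share of macrophages with any UMI was 9.71%, 28.8%, 22.8% and 33.3% for Ccl2 and 7.77%, 15.7%, 19.3% and 24.4% for Ccl7, before thinning, and control 2 holds the most macrophages.

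Cells with Ccl2 carried Ccl7 more often than cells without it, counted over all monocyte-macrophages. Both genes were highest in C1q macrophages, a part of these cells, and co-detection within that class alone was not counted. Among monocyte-macrophages thinned to 1500 UMIs each, 38.0% of the cells of control 2 with a Ccl2 UMI had a Ccl7 UMI (57 of 150 cells), against 2.22% of cells without. In the other libraries the shares were 21.1%, 37.5% and 20.8% against 0.0879%, 0.579% and 0.114%, from 4 to 6 cells with both. A Ccl24 UMI was found in 5.33% of the Ccl2 cells of control 2 and in 6.33% of the rest, and in 2 of 19, 0 of 16 and 0 of 24 Ccl2 cells of the others.

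**Figure D2:**
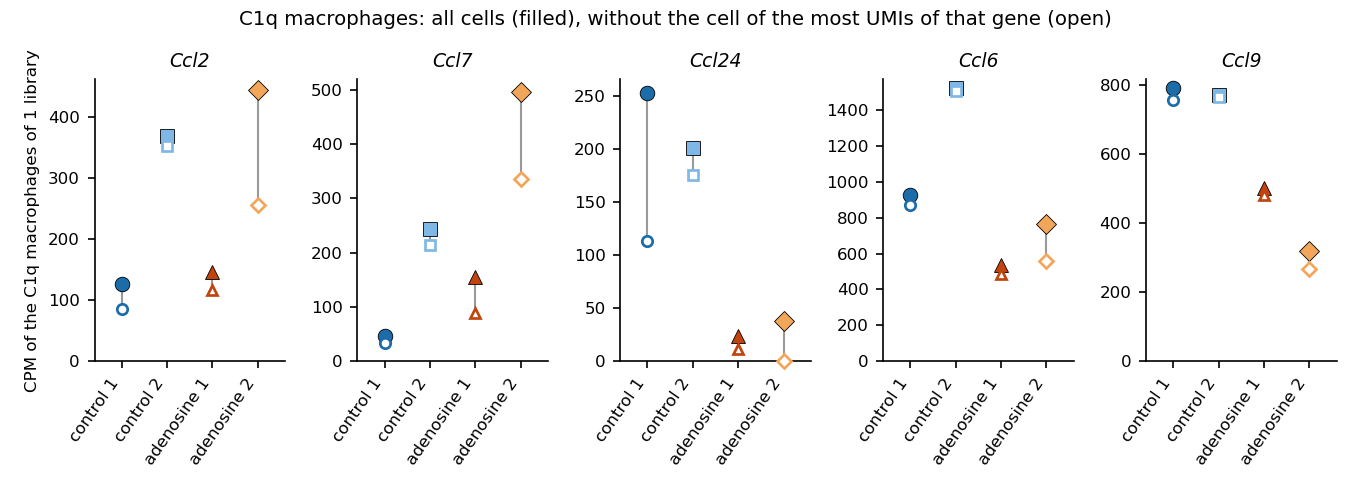
Level (CPM, linear axis from 0) of 5 of the genes in the C1q macrophages of each library, with all cells (filled) and without the 1 cell holding most UMIs of that gene (open). For Ccl24 both filled control points lie above both filled adenosine points, and the open point of adenosine 2 is at 0 because its only cell with Ccl24 is left out. For Ccl2 and Ccl7 the groups are interleaved.

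In thinned cells the share of C1q macrophages with a Ccl24 UMI was 4.95% (exact 95% binomial interval 1.63% to 11.2%), 7.11% (5.52% to 8.99%), 2.11% (0.438% to 6.05%) and 2.33% (0.0589% to 12.3%). The intervals, which cover counting error only, of both controls overlap those of both adenosine libraries. The share of B cells with a Ccl24 UMI, taken as a background class, was 0 to 0.313%. For Ccl2 the macrophage shares were 5.94%, 16.4%, 9.15% and 20.9%, against 0 to 0.149% of B cells. Macrophages had median depths of 8776 to 10541 UMIs and B cells 3818 to 4326 before thinning.

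Ccl3 and Ccl4, products of activated leukocytes, differed widely between libraries in mature neutrophils. There Ccl3 stood at 163, 3261, 282 and 33.3 CPM and Ccl4 at 373, 6537, 481 and 70.6, with control 2 far above the other 3 for both. After thinning, 52.5% of the mature neutrophils of control 2 had a Ccl3 UMI (51.0% to 54.0%), against 5.42%, 6.86% and 2.60%. For Ccl4 the share was 51.5% in control 2 and 5.45%, 5.31% and 3.73% in the others. B cells had Ccl3 UMIs in 0%, 6.41%, 0% and 0.892% of thinned cells, so this background was also highest in control 2.

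The Ccl3 and Ccl4 of neutrophils lay in clusters 0 and 13, which are led by Cd14, Acod1, Clec4d, Slc7a11 and Spp1 (Il1b in cluster 0, Hcar2 and Il1rn in cluster 13). These clusters held 4.78%, 92.3%, 4.66% and 1.55% of the mature neutrophils of a library. They held 85.0%, 99.5%, 75.1% and 54.2% of the Ccl3 UMIs of these cells and 94.3%, 99.7%, 68.7% and 71.3% of the Ccl4 UMIs. Within cluster 0, Ccl3 stood at 2286, 1985, 3340 and 1128 CPM, and control 2 was below control 1 and adenosine 1. Within cluster 13, in the 3 libraries with at least 20 cells, it stood at 4180 (control 1), 7974 (control 2) and 7113 (adenosine 1). Ccl4 stood at 5686, 4797, 5118 and 2256 CPM in cluster 0 and at 10948, 13637 and 11309 in cluster 13. Adenosine 2 had 28 and 6 cells in the 2 clusters.

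In the other mature neutrophils, those outside clusters 0, 13 and 29, Ccl3 was at 25.6, 103, 22.8 and 15.5 CPM and Ccl4 at 22.4, 131, 21.9 and 20.6. Control 2 was again highest there, and its B cells, too, held more than those of the others, at 43.3 CPM of Ccl3 against 0.838 to 3.78 and 51.4 of Ccl4 against 1.95 to 11.3. Cluster 29, with 50 of its 57 cells from adenosine 1 and led by Acod1, Gbp5 and Gbp2, held 2307 CPM of Ccl3 and 6100 of Ccl4 in that library. It gave 17.4% of the Ccl3 UMIs of the mature neutrophils of adenosine 1.

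**Figure D3:**
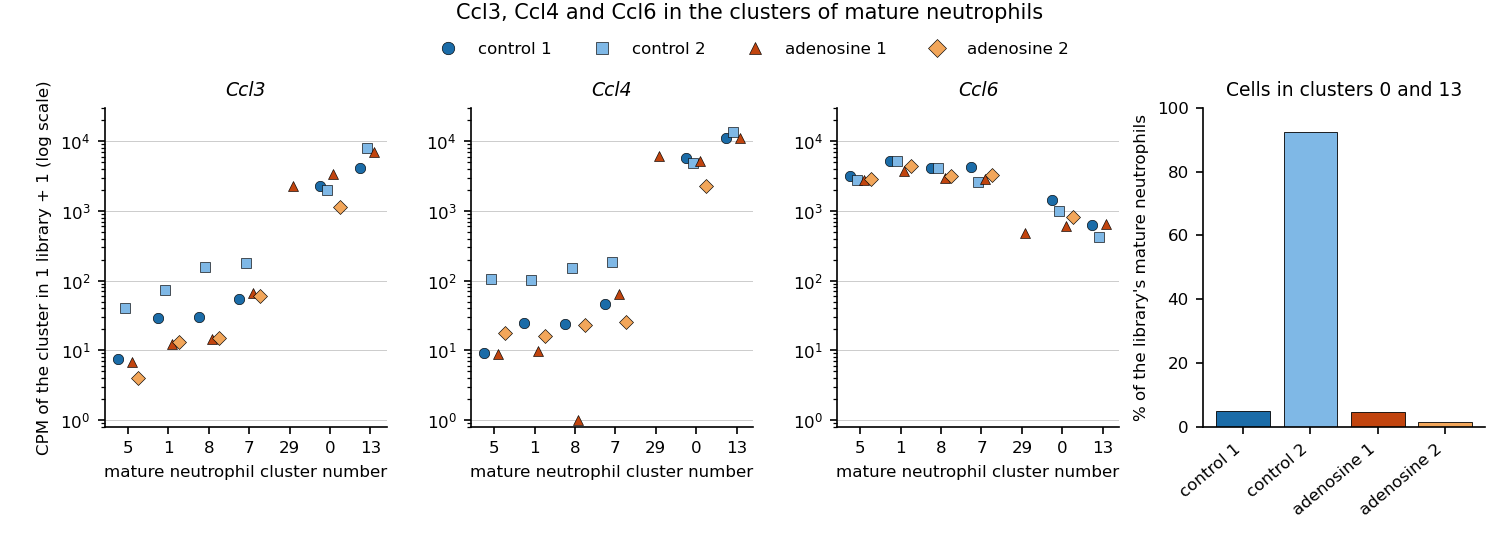
Left 3 panels, level of Ccl3, Ccl4 and Ccl6 (CPM + 1, log axis) in each cluster of mature neutrophils, 1 point per library with at least 20 cells. Right panel, share of the mature neutrophils of each library in clusters 0 and 13, where the bar of control 2 stands at 92.3% and the others below 5%.

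The 2 genes went together in single cells. Of thinned neutrophils with a Ccl3 UMI, 40.0%, 70.8%, 50.6% and 24.6% also had a Ccl4 UMI, against 1.90%, 28.1%, 1.07% and 2.02% of those without. A Ccl6 UMI was found in 72.3%, 45.8%, 46.9% and 68.9% of the Ccl3-bearing neutrophils and in 56.3%, 50.6%, 50.2% and 50.6% of the rest, higher in 2 libraries and lower in the other 2.

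Neutrophils were not the only source of Ccl3 and Ccl4, and in adenosine 2 most of it came from T cells. Basophils or mast cells, at 43 to 52 cells a library, held 1470, 1260 and 1680 CPM of Ccl3 in control 1, adenosine 1 and adenosine 2, and 71.1%, 74.0% and 72.1% of their thinned cells had a UMI of it. With classes from the highest marker score of each cell the mean moved from 1470 to 745 CPM. Control 2 had 4 such cells and gives no level. T cells stood at 0.983, 29.6, 10.0 and 463 CPM of Ccl3 and at 36.4, 140, 76.7 and 1143 of Ccl4. In adenosine 2 they gave 83.6% of all Ccl3 UMIs and 89.5% of all Ccl4 UMIs, and mature neutrophils gave 72.4%, 97.3% and 74.8% of the Ccl3 UMIs in the other 3 libraries. Adenosine 2 held 1184 T cells against 38 to 222, and 773 of the 775 cells of 1 T cell cluster came from it. Natural killer cells stood at 107, 103 and 745 CPM of Ccl3 in the 3 libraries with at least 20 of them, highest again in adenosine 2.

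Ccl6, a Ccr1 ligand, was higher in mature than in immature neutrophils. Among immature neutrophils, the dividing cluster 9 (447 CPM of Mki67) stood at 22.2 to 72.5 CPM of Ccl6, clusters 4 and 2 at 20.0 to 55.1 and 44.1 to 122, and cluster 3, led by Mmp8 and Retnlg, at 457 to 820. Mature neutrophils stood at 4074, 1059, 2967 and 3288 CPM. B cells, for comparison, held 19.6 to 48.2 CPM, so the levels of clusters 4 and 9 were near this background. After thinning, 94.7%, 49.8%, 89.2% and 91.0% of mature neutrophils had a Ccl6 UMI.

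Within mature neutrophils Ccl6 ran against Ccl3 and Ccl4 by cluster. It was at 1447, 1004, 598 and 816 CPM in cluster 0 and at 635, 425 and 651 in cluster 13 (control 1, control 2 and adenosine 1), and at 482 in cluster 29. The cells outside these clusters held 4221, 3588, 3144 and 3328 CPM, so that there control 2 was second highest. The groups were not compared there, since the cells were set apart by cluster after the values were seen. In mature neutrophils as a whole the groups overlapped, at 4074, 1059, 2967 and 3288 CPM.

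Basophils or mast cells held 2299.9, 2358 and 3522 CPM of Ccl6, overlapping with mature neutrophils. Classical monocytes stood at 1430, 1220, 790 and 757 CPM and C1q macrophages at 927, 1519, 539 and 765. In both classes the 2 control libraries were above the 2 adenosine libraries. In thinned C1q macrophages the shares with a Ccl6 UMI were 54.5% (44.2% to 64.4%), 58.9% (55.6% to 62.1%), 26.1% (19.1% to 34.1%) and 25.6% (13.5% to 41.2%), where the intervals cover counting error within a library only and are no test of the groups. In thinned classical monocytes they were 82.7%, 72.1%, 64.1% and 62.6%.

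Ccl9, a Ccr1 ligand known from macrophages and osteoclasts, was low in neutrophils against its own level in monocytes, unlike Ccl6 beside it in the genome. Mature neutrophils held 22.7, 45.1, 19.3 and 11.4 CPM, against 8.80, 5.41, 11.7 and 4.81 in B cells. It was highest in basophils or mast cells (1439, 1124 and 912 CPM without control 2), which did not overlap with C1q macrophages (791, 772, 501 and 320). With classes taken from the highest marker score of each cell, the mean in basophils or mast cells moved from 1158 to 597 CPM, within the range of the macrophages. Classical monocytes stood at 537, 355, 467 and 300 CPM and overlapped with the macrophages. In the macrophages both controls were above both adenosine libraries, and in the monocytes they were not.

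Classical monocytes gave 57.4%, 38.2% and 48.4% of the Ccl9 UMIs in control 1, adenosine 1 and adenosine 2, and C1q macrophages gave 82.2% in control 2. Granulocyte-monocyte progenitors gave 32.1% in adenosine 1. For Ccl6 mature neutrophils gave 59.1%, 46.5%, 62.4% and 58.3% of the UMIs. Monocyte-macrophages with a Ccl6 UMI had a Ccl9 UMI more often than those without after thinning, at 53.4%, 65.3%, 49.4% and 35.4% against 42.6%, 36.5%, 39.0% and 26.2%.

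The adenosine and control libraries were compared with edgeR's quasi-likelihood test over all genes, adjusted by the Benjamini-Hochberg method, on sums over all cells, over neutrophils and over monocyte-macrophages. With all 4 libraries and the filter on low counts, no member passed an adjusted p of 0.05 by edgeR in any of these. In all cells edgeR called 0 of 16368 genes (0.0%), with 420 at an unadjusted p under 0.05 (2.57%). DESeq2 called 19 of the 12560 genes to which it gave an adjusted p (0.151%). In neutrophils edgeR called 0 of 12177 (0.0%), with 287 unadjusted (2.36%), and DESeq2 56 of 8399 (0.667%). In monocyte-macrophages edgeR called 0 of 12046 (0.0%), with 144 unadjusted (1.2%), and DESeq2 3 of 12046 (0.0249%).

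In all cells the fitted log2 ratio of adenosine over control was below 0 for all 7 members, as it was for 46.0% of all genes, and all 7 were highest in control 2, as were 25.0% of genes. The median over the 7 was -3.47 on the log2 scale, against 0.05 over all genes tested. For Ccl6, Ccl9 and Ccl24 both adenosine values lay under both control values, which held for 9.82% of genes. Ccl24 stood at 8.08, 62.5, 1.21 and 1.07 CPM, a log2 ratio of -5.23 ± 1.19 (SE), and its adjusted p was 0.873 by edgeR and 3.00e-04 by DESeq2. Without control 2, which leaves control 1 alone, its ratio was -2.91. In control 1, 1 macrophage held 141 and 1 classical monocyte 84 of the 402 UMIs.

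Ccl6 in all cells stood at 1013, 1042, 536 and 484 CPM, close within each group, with a log2 ratio of -1.20 ± 0.31 and an adjusted p of 0.873 by edgeR. Without control 2 it was -1.07. Ccl9 stood at 169, 285, 127 and 92.6 CPM, with -1.28 ± 0.43 at the same adjusted p by edgeR and -0.72 without control 2. These sums also hold the shares of the classes: mature neutrophils, the main source of Ccl6, were 36.1%, 73.2%, 32.2% and 27.0% of cells, and their part in the result was not tested.

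The other 4 members rested on control 2. Ccl2 stood at 5.33, 134, 5.78 and 8.48 CPM in all cells, Ccl7 at 1.03, 77.0, 5.07 and 3.95, Ccl3 at 33.0, 1536, 42.5 and 119, and Ccl4 at 65.8, 3083, 65.1 and 274. Control 1 was lowest of the 4 for Ccl2, Ccl7 and Ccl3 and lay between the adenosine libraries for Ccl4. The log2 ratios were -3.57, -3.42, -3.55 and -3.47 with all libraries, and without control 2 they turned to 0.36, 2.04, 1.25 and 1.34, with adjusted p-values of 0.873 and, without control 2, 0.9999 by edgeR.

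**Figure D4:**
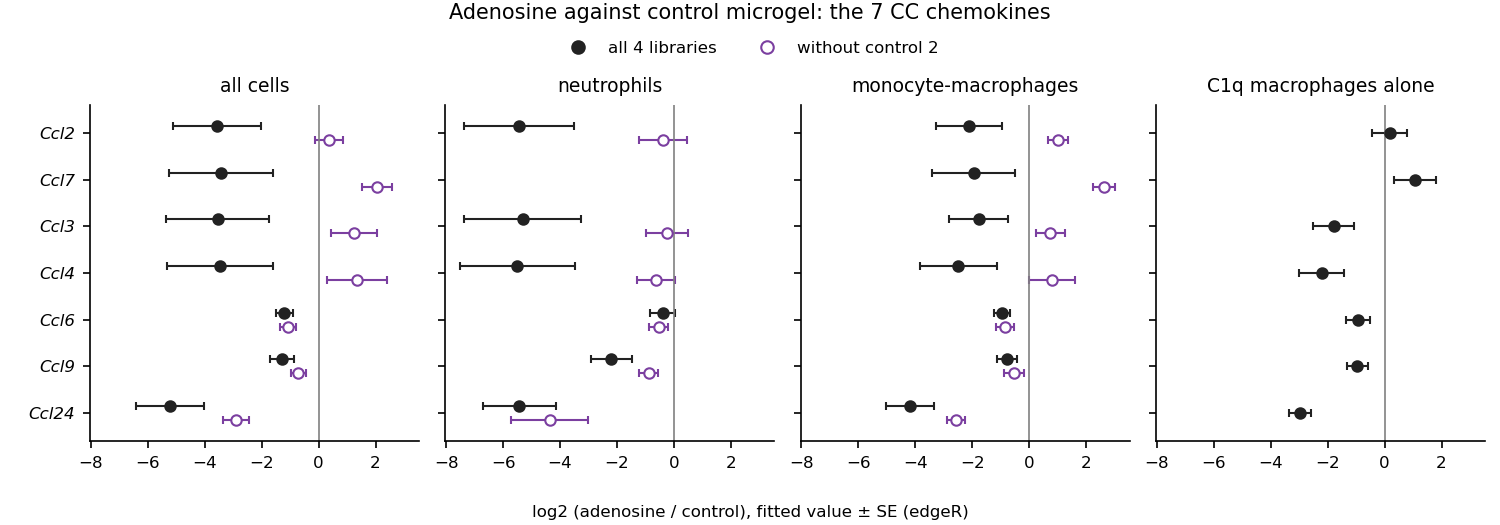
Fitted log2 ratio of adenosine over control for each gene (point, bar = SE, edgeR) in 3 sums of cells with all 4 libraries (black) and without control 2 (open purple), and in C1q macrophages alone. Ccl24, Ccl6 and Ccl9 stay left of 0 without control 2, while Ccl2, Ccl7, Ccl3 and Ccl4 cross to the right in all cells and in monocyte-macrophages.

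In neutrophils 6 members were tested, and all 6 fitted ratios were below 0, as for 48.3% of genes. Ccl7, at 2, 57, 10 and 2 UMIs, did not pass the filter on low counts. Ccl2, Ccl9 and Ccl24 were lower in both adenosine libraries (9.82% of genes), but for Ccl2 control 1 and adenosine 2 were level (0.720 CPM each). Ccl24, at 15, 28, 0 and 1 UMIs, could pass that filter only through the controls, so its direction was set in advance and is no result. Ccl3 gave -5.31 ± 2.05 and Ccl4 -5.50 ± 2.01, with an adjusted p of 0.851 by edgeR and 0.0152 and 0.0115 by DESeq2, and without control 2 they were -0.25 and -0.63. Ccl2 gave -5.44 with an adjusted p of 0.0152 by DESeq2, from 16, 583, 7 and 13 UMIs, and -0.39 without control 2. The 7 C1q macrophage markers, none at 0, summed to 58.9, 169, 58.7 and 35.6 CPM in these neutrophils, and the 7 Arg1 macrophage markers, of which Gpnmb was at 0 in adenosine 2, to 74.1, 3198, 107 and 62.6. The Arg1 list holds Spp1, which is also among the genes leading neutrophil clusters 0 and 13, so that sum is not particular to macrophages. Both sums were highest where Ccl2 was highest, and their part in the result was not tested. With no filter on low counts edgeR called Ccl2, Ccl3, Ccl4, Ccl9 and Ccl24 in neutrophils, at adjusted p-values from 6.29e-14 to 0.00945, among 616 genes (2.96%). Without control 1, the remaining control being control 2, edgeR called Ccl2, Ccl3, Ccl4, Ccl9 and Ccl24 at adjusted p-values of 5.44e-04 to 6.82e-03, and 4222 genes in all (32.5%), the lone control being taken to vary like the adenosine libraries. Ccl6 was at 1471, 950, 1026 and 994 CPM, groups that overlapped, with -0.39 ± 0.44, and in mature neutrophils alone the ratio was 0.27. Ccl9 was at 12.7, 40.5, 8.24 and 5.70 CPM, a log2 ratio of -2.20, or -0.89 without control 2.

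In monocyte-macrophages all 7 were again below 0 (48.6% of genes) and highest in control 2 (29.1%), and Ccl6, Ccl9 and Ccl24 were lower in both adenosine libraries (8.01%). Ccl24 stood at 36.1, 172, 6.65 and 5.35 CPM, with a log2 ratio of -4.19 ± 0.84. Its adjusted p was 0.999 by edgeR and 3.13e-05 by DESeq2. Its ratio was -2.58 without control 2, which leaves control 1 alone. Ccl6 gave -0.96 ± 0.29 and Ccl9 -0.77 ± 0.35, or -0.85 and -0.53 without control 2. Ccl2 (-2.11), Ccl7 (-1.96), Ccl3 (-1.78) and Ccl4 (-2.49) turned to 0.99, 2.61, 0.74 and 0.80 without control 2, all at an adjusted p of 0.999 or more by edgeR. Without control 1, edgeR called 31 genes (0.246%), with Ccl2, Ccl7 and Ccl24 among them at adjusted p-values of 0.0412, 0.0369 and 0.0206. C1q macrophages were 103 of 1173, 917 of 1069, 145 of 716 and 45 of 907 of these cells, and the sums mix that share with the level per cell.

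C1q macrophages alone were fitted because of that share, a choice made after the values were seen. Ccl24 gave -2.96 ± 0.38 there, with an unadjusted p of 2.18e-05 and an adjusted p of 0.145 by edgeR, where 0 of 8840 genes were called (0.0%) and 255 had an unadjusted p under 0.05 (2.88%). Ccl6 (-0.94 ± 0.41) and Ccl9 (-0.95 ± 0.35) were also lower in both adenosine libraries, as 11.2% of genes were. Ccl2 (0.18) and Ccl7 (1.07) had fitted ratios above 0, and Ccl3 (-1.79) and Ccl4 (-2.21) below it, with groups that overlapped for these 4. In classical monocytes alone Ccl6 gave -0.83 ± 0.31 and Ccl24 -1.72 ± 0.59, both lower in both adenosine libraries (9.53% of genes), and Ccl9 gave -0.28 ± 0.33. The Ccl24 UMIs of these monocytes numbered 119, 6, 10 and 33, and 1 cell of control 1 held 84 of the 119.

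Whether the ratio differed between the 2 classes was tested as an interaction with the library as a block. It was 2.56 ± 0.79 for Ccl2, 2.73 ± 1.49 for Ccl3, 2.33 ± 1.53 for Ccl4, 1.08 ± 0.58 for Ccl9 and -0.60 ± 0.39 for Ccl6 (monocyte-macrophages minus neutrophils, log2, ± SE). Each had an adjusted p of 0.897 by edgeR. Ccl2 had 16, 583, 7 and 13 neutrophil UMIs, so outside control 2 it was near 0 and its difference rests on that library. No difference is given for Ccl7 and Ccl24, whose neutrophil UMIs were also few. No gene of 13300 was called by edgeR (0.0%), with 204 at an unadjusted p under 0.05 (1.53%) and 1 called by DESeq2 (0.00752%). Without control 1, edgeR called 3088 (22.0%), among them Ccl2 (3.36) and Ccl9 (1.82).

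Receptors of these chemokines were measured in the same cells. Ccr1 was highest in mature neutrophils at 521, 1181, 591 and 454 CPM, and its log2 ratio in neutrophils was -1.85 (adjusted p 0.851 by edgeR). Ccr2 was highest in classical monocytes at 1596, 2098, 1783 and 1617 CPM, groups that overlapped, and stood at 814 to 1246 in C1q macrophages. Ccr3 was highest in basophils or mast cells (21.0, 45.4 and 39.3 CPM without control 2), overlapping with T cells (0 to 85.8). The scavenging receptor Ackr2 was at 0 CPM in mature neutrophils, classical monocytes and C1q macrophages of all 4 libraries. Of the 13 listed receptors, edgeR tested 11 in all cells, of which 0 passed, 4 had ratios above 0 and 7 below.

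Of 13 other CC chemokines, 6 had enough UMIs in all cells, 0 passed and 2 had ratios above 0. Ccl5, a lymphocyte product, stood at 4043, 2585, 3444 and 17863 CPM in T cells, and at 14.2, 4.84, 5.65 and 223 in mature neutrophils, highest in adenosine 2 in both. B cells held 11.3, 0, 3.91 and 151 CPM of it, and the 6 T cell markers summed to 14.9, 10.7, 13.8 and 55.5 CPM in neutrophils (Cd28 at 0 in control 2), also highest in adenosine 2, and their part in the neutrophil value was not tested. Ccl25 was low and even, at 36.1, 22.4, 32.4 and 27.3 CPM in monocyte-macrophages (log2 0.00 by the fit). Ccl8 and Ccl12, relatives of Ccl2 picked after their values were seen, were found in C1q macrophages at 0, 24.6, 80.03 and 365 CPM and at 7.99, 41.5, 74.9 and 185. Adenosine 2 held 45 of these cells. The groups are not compared for these genes, as they were picked by value and no share over all genes is given.

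A list of 21 NF-kB response genes was compared as well, since NF-kB is a known inducer of Ccl2, Ccl3 and Ccl4. In neutrophils 20 were tested, 0 passed, 19 had ratios below 0 and 19 were highest in control 2 (30.4% of genes), with a median log2 ratio of -1.73 against 0.03 over all genes. Of these, chosen after their values were seen, Nfkbia stood at 165, 1279, 199 and 165 CPM and Cxcl2 at 195, 12460, 224 and 17.6. In monocyte-macrophages 19 were tested, 0 passed and 12 had ratios above 0, with a median of 0.03 against 0.01. Genes of the response to tissue dissociation moved with control 2 too: 13 of 13 tested were highest in it in neutrophils (30.4% of genes). In mature neutrophils alone it was 9 of 13, and 17 of 20 for the NF-kB list. No share over all genes is given for that class, so these 2 counts are not read as a result. The part of the dissociation genes in the Ccl3 and Ccl4 values was not tested. Of 10 resident macrophage genes, 7 were tested in monocyte-macrophages, 0 passed, 2 had ratios above 0, and the median was -0.59 against 0.01 over all genes. In C1q macrophages alone 5 were tested, 0 passed and 5 had ratios above 0, with a median of 0.61 against 0.01.

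For each gene the 3 with the most similar levels were taken over 38 sums of library and class of at least 50 cells, out of 10410 genes, by Pearson's r of log2(CPM + 10). The points share libraries and classes, so r is a description. The minimum left out the C1q macrophages of adenosine 2 (45 cells), the sum where Ccl2 and Ccl7 were highest. Of basophils or mast cells, a leading class for Ccl3 and Ccl9, it kept only the sum of adenosine 1 (52 cells). Ccl3 and Ccl4 were each other's closest member (r = 0.94), as were Ccl2 and Ccl7 (0.91), and Ccl24 was closest to Ccl2 (0.88). Ccl2 was most like Mmp19, Ms4a7 and C1qb (0.91 to 0.93) and Ccl7 like the protease gene Ctsk, Arg1 and Fblim1 (0.97 to 0.98). Ccl24 was most like Cxcl14, Akr1b8 and the coagulation factor gene F7 (0.95 to 0.98). Ccl3 was most like the growth factor Csf1, the early response gene Egr1 and Plk3 (0.81 to 0.84), and Ccl4 like Egr1, Soat2 and Pnrc1 (0.78 to 0.81). Ccl6 was most like Cd300lb, the inflammasome sensor Nlrp3 and Lilrb4a (0.91 to 0.93). Ccl9 was most like Upp2, Adora2b, which encodes the A2B adenosine receptor, and Rnf217 (0.89 to 0.90), and Adora2b reached at most 43.6 CPM. Fblim1, Soat2 and Upp2 were also low, reaching at most 34.9, 28.9 and 31.0 CPM.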

How the data were processed

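Per the submitters' processing notes, reads were processed with Cell Ranger 7.0.0 on mm10, and the authors deposited raw UMI counts per gene and barcode. Whether intronic reads were counted is not given in the sources used here. Barcodes with at least 200 genes and under 10% mitochondrial UMIs were kept. The highest Scrublet scores, 0.8% per 1000 barcodes, were removed as doublets (2418 cells), because the tool's own threshold marked 0% in 3 libraries. Cells were clustered (scanpy 1.11.5, leidenalg 0.10.2) without 46 chemokine genes, and 30 of 31 clusters were named from marker lists, with a minimum mean rise of 2 (log2) chosen after clustering. UMIs were summed per library and class and tested with edgeR 4.0.16 (R 4.3.3; TMM, filterByExpr, Benjamini-Hochberg), the library being the replicate. DESeq2 1.42.0 was an alternative, and the code was tested on simulated data. Shares used cells thinned to 1500 UMIs, and levels classes of at least 20 cells. The receptors (1 of which is not reported here) and other chemokines named were set by rule (at least 20 CPM in a class of every library for the latter), as were the 3 most similar genes; Ccl8, Ccl12, Nfkbia and Cxcl2 were chosen after their values were seen. The members and lists were chosen with earlier results of these data known. Libraries held 29329030 to 58023643 UMIs, and the spread between 2 libraries a group sets the standard errors.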

Additional observations from a re-analysis of the deposited data

How the results depend on the processing

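With all 4 libraries edgeR called 0 genes in each comparison. DESeq2 called 19 in all cells (6 higher, 13 lower), 56 in neutrophils (2 and 54), 3 in monocyte-macrophages (1 and 2) and 1 for the difference between the classes, and neutrophils without a filter on low counts gave 616 (42 and 574). Leaving out 1 library at a time gave 0 to 0 calls in all cells, 0 to 4222 in neutrophils (4222 without control 1, 2 without control 2), 0 to 31 in monocyte-macrophages (31 without control 1) and 0 to 3088 for the difference (3088 without control 1). The cause was not tested. The replicate block called 0 in all 3 comparisons. Libraries of the same number did not deviate together (correlations -0.108, -0.0353 and -0.153). With 2 libraries a group this cannot exclude that the numbers pair them. A crossed block, chosen after seeing the data, called 0 in all cells and 71 in monocyte-macrophages (30 and 41). Of the members' alternatives, 255 kept direction and side of the threshold, 21 passed it and 12 turned. With 1 library left out at a time, the log2 ratios in all cells ran from -4.55 to 0.36 for Ccl2, -4.44 to 2.04 for Ccl7, -4.56 to 1.25 for Ccl3 and -4.95 to 1.34 for Ccl4, and in monocyte-macrophages from -3.06 to 0.99, -2.96 to 2.61, -2.68 to 0.74 and -3.86 to 0.80, each positive value being that without control 2. In single classes, Ccl6 was 0.27 in mature neutrophils, Ccl2 0.013 in classical monocytes, and Ccl2 0.18 and Ccl7 1.07 in C1q macrophages. Classes from each cell's highest marker score, which gave 78.4% of cells the same broad class, put basophil or mast cell Ccl3 at 745 and Ccl9 at 597 CPM. Unthinned, 23.6%, 16.8% and 8.60% of C1q macrophages had a Ccl2, Ccl7 and Ccl24 UMI, and 94.4% and 79.6% of basophils or mast cells a Ccl3 and Ccl9 UMI (Ccl3 69.6% thinned to 1000 UMIs). Ccl7, at 2, 57, 10 and 2 UMIs, did not pass the filter on low counts in neutrophils.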
